A study of Arabidopsis thaliana with 12 samples.

Results

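The 10 genes described here are the catalytic subunits of the cellulose synthase complex used in primary walls (CESA1, AT4G32410; CESA3, AT5G05170; CESA6, AT5G64740), those used in secondary walls (CESA4, AT5G44030; CESA7, AT5G17420; CESA8, AT4G18780), and CSLB02 (AT2G32620), CSLB03 (AT2G32530), CSLB04 (AT2G32540) and CSLB05 (AT4G15290) of the cellulose synthase-like B family. They were taken by identifier from a table of 25872 *Arabidopsis thaliana* genes, which held all 10. RNA-seq of roots was analysed in 4 groups of 3 libraries each, *GmNTL4*-overexpressing seedlings under Al (OX, Al), wild type under Al (WT, Al), *GmNTL4*-overexpressing seedlings without Al (OX, control) and wild type without Al (WT, control). *GmNTL4* is a soybean gene for a membrane-bound NAC transcription factor, and it was expressed from the 35S promoter, which is active in most plant tissues. The study selected a pair of transgenic lines, and which of them gave the RNA is not given in the sources used here. By the study's methods, seedlings for RNA-seq were grown in diluted nutrient solution at acid pH, without dihydrogen phosphate and with calcium chloride. That description covers seedlings with Al, and the methods do not describe the controls of the RNA-seq. The methods give 5 µM AlCl3 for 48 h, whereas the labels give 24 h. Nothing states whether the 3 libraries of a group came from separate cultures, so that the p-values measure the spread between these libraries, which may be technical.

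Cellulose is made at the plasma membrane by a rosette complex that holds 3 kinds of CESA subunit. CESA1 and CESA3 are found in the primary-wall complex together with CESA6 or one of its close relatives, and roots need them for cell elongation. CESA4, CESA7 and CESA8 form a separate complex in cells that lay down a secondary wall, which in the root are chiefly xylem cells, and loss of any of the 3 gives collapsed (irregular) xylem. CSLB proteins share the glycosyltransferase fold of the CESA proteins, and what they make in the plant is not established.

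CESA and CSLB genes can be told apart by the coding sequence around the QxxRW motif, a part of the catalytic site that all these proteins share. Below, 60 coding bases are shown per gene from the RefSeq annotation of TAIR10.1, read in the direction of transcription, with the 15 bases of the motif in capitals. They are shown because they place the 10 genes in the same enzyme superfamily and let the classes be compared.
CESA1: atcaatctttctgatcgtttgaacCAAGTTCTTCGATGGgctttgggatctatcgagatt
CESA3: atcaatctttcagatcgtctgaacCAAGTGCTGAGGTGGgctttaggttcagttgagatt
CESA6: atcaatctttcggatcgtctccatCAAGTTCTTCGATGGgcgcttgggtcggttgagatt
CESA4: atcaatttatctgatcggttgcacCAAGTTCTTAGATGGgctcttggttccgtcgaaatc
CESA7: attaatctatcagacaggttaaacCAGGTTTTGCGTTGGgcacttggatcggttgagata
CESA8: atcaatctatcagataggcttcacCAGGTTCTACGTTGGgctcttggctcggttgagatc
CSLB02: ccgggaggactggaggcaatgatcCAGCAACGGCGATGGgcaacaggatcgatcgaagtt
CSLB03: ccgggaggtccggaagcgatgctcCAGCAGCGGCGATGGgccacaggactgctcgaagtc
CSLB04: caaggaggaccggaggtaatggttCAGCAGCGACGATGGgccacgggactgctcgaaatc
CSLB05: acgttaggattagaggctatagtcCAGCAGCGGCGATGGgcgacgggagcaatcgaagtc
The motif was found once in each of the 10 predicted proteins. CESA1 and CESA6 share all of the capital bases, and so do CSLB03 and CSLB05. No position of the capital bases sets all primary-wall CESA genes apart from all secondary-wall CESA genes. In the CESA proteins it began between residue 721 (CESA8) and residue 823 (CESA6), in proteins of 985 to 1084 residues. In the shorter CSLB proteins of 755 or 757 residues it began at residue 498 or 499.

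On TAIR10.1, CESA1 lies on chromosome 4 (15640490 to 15646844, minus strand) and CESA8 on the same chromosome (10312624 to 10316886, minus strand). CESA3 (1530132 to 1535558, minus strand), CESA7 (5736630 to 5741500, minus strand), CESA4 (17714390 to 17719723, plus strand) and CESA6 (25881033 to 25886728, plus strand) lie on chromosome 5. The CESA genes have 11 to 15 exons in the transcript with the longest coding sequence, and the CSLB genes have 9. CSLB03 (13809019 to 13813572) and CSLB04 (13814543 to 13818410) are neighbours on the plus strand of chromosome 2, 970 bases apart with no gene between them. CSLB02 (13840687 to 13844425) lies further along the same strand, and CSLB05 is on the minus strand of chromosome 4 (8721482 to 8726733). Coding sequences of the CSLB genes were 83.1% to 88.9% identical in pairs, against 70.7% to 74.1% within the CESA classes. The most alike pair was CSLB03 and CSLB04, whose longest identical run was 88 bases. No stretch of 150 bases, the read length given in the study's methods, was identical between any pair of members within a class. How reads that fit more than 1 gene were counted is not given in the sources used here, so counts of the CSLB genes may still share a few fragments.

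The libraries held 16162941 to 17136217 fragments on genes. All 10 root markers were above 0 in every library, with summed levels of 199 to 367 FPKM, a level that corrects the fragments of a gene for its length and for the depth of the library. Markers of green tissue stood apart in 3 WT libraries. The 10 green-tissue genes summed to 574 and 411 FPKM in WT, Al replicates 2 and 3 and to 363 FPKM in WT, control replicate 1, against 52.8 to 122 FPKM in the other libraries. One of the 10 was at 0 in 3 OX libraries. Values without these 3 libraries are given for CESA1, CESA3 and CESA6. Between OX and WT under Al they are also given for CESA4, CESA7, CESA8, CSLB03 and CSLB04. WT, Al then had 1 library, which is assumed to vary like the libraries of the other groups. The *GmNTL4* transcript itself was not analysed here, since the table lists *Arabidopsis* genes.

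The members covered a wide range of levels. CESA3 had 94.9 to 146 FPKM over the 12 libraries, CESA1 92.0 to 141.5 FPKM and CESA6 58.7 to 91.0 FPKM. CESA7 had 3.13 to 11.1 FPKM, CESA4 4.16 to 10.5 FPKM and CESA8 1.60 to 6.11 FPKM. Every library thus had more of each primary-wall CESA than of any secondary-wall CESA. The 4 CSLB genes were below all CESA members in each library, apart from CSLB03 in WT, control replicate 1, which at 6.75 FPKM exceeded CESA4 and CESA8. CSLB03 had 0.208 to 6.75 FPKM, CSLB04 0.0474 to 1.84 FPKM, CSLB05 0.0920 to 1.60 FPKM and CSLB02 at most 0.629 FPKM. Neighbours in this order overlapped, CESA1 with CESA3, CESA4 with CESA7 and CESA8, and the CSLB genes among themselves.

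**Figure D1:**
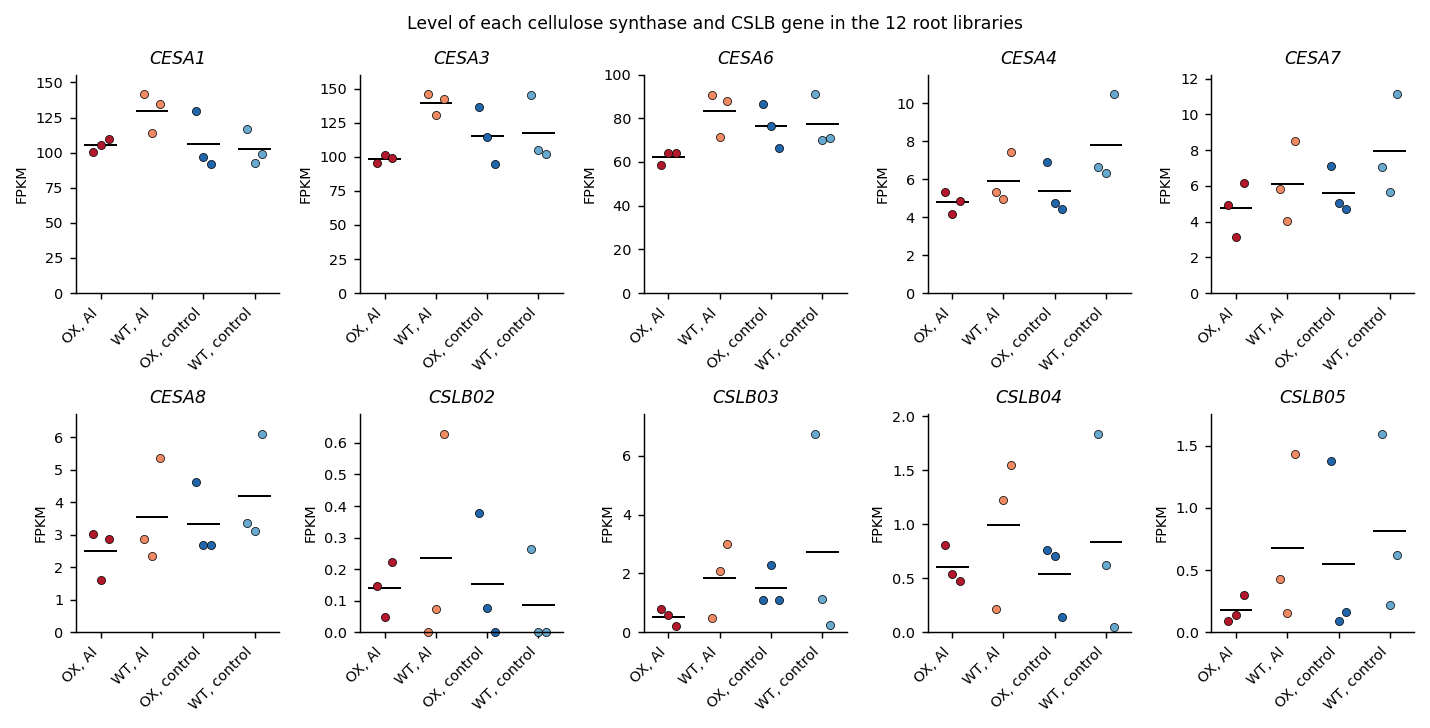
FPKM of the 10 genes (y axes, each from 0) in each library of the 4 groups (x axes). Points are libraries and horizontal bars are group means. For CESA1, CESA3 and CESA6 all OX, Al points lie below all WT, Al points, while for the other genes these groups overlap.

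Taken as shares of the summed FPKM of all 10 CESA genes, CESA1, CESA3 and CESA6 made up 80.2% to 87.4% in the 12 libraries, and CESA4, CESA7 and CESA8 made up 2.83% to 8.16%. The primary-wall sum was 9.83 to 30.4 times the secondary-wall sum. In the sum of the 3 secondary-wall genes, CESA8 had the lowest share in every library, 18.0% to 25.2%, against 34.9% to 46.8% for CESA4 and 35.2% to 44.4% for CESA7. These shares are ratios of levels per gene length and say nothing of protein.

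The first comparison asked how overexpression of *GmNTL4* altered these transcripts under Al. No member passed the test, which asked for an adjusted p no higher than 0.05 together with a difference of 1 or more on the log2 scale. In this comparison 0.0385% of the 20773 tested genes passed, 6 higher and 2 lower in OX. Of the 10 members, 9 could be tested, since CSLB02 reached 0.5 FPKM in 1 library only. Among those 9, CESA1, CESA3 and CESA6 were lower in every OX, Al library than in every WT, Al library, while the other 6 overlapped.

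CESA3 had 95.5, 101 and 99.5 FPKM in the OX, Al libraries, against 146, 131 and 142 FPKM in the WT, Al libraries. All OX libraries were below all WT libraries, and the OX libraries lay close together. The log2 fold change was -0.50 ± 0.16 (SE, 95% interval -0.84 to -0.15, unadjusted p = 0.00895, adjusted p = 0.368 by limma). CESA3 had the lowest unadjusted p among the members.

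CESA6, the subunit whose place in the complex can also be taken by its close relatives CESA2, CESA5 and CESA9, had 58.7, 64.2 and 64.3 FPKM in OX, Al and 90.8, 71.5 and 87.9 FPKM in WT, Al. The groups did not overlap, and WT replicate 2 was the nearest to the OX libraries. The log2 fold change was -0.41 ± 0.14 (SE, 95% interval -0.72 to -0.10, unadjusted p = 0.0134, adjusted p = 0.385 by limma). CESA1, a subunit of every primary-wall complex, had 100.6, 105 and 109 FPKM in OX, Al and 141.5, 114 and 134 FPKM in WT, Al. Here too the groups did not overlap, with WT replicate 2 only slightly above the highest OX library. The log2 fold change was -0.30 ± 0.15 (SE, 95% interval -0.62 to 0.02, adjusted p = 0.488 by limma).

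Of all tested genes, 10.8% were lower in every OX, Al than in every WT, Al library, as these 3 were, and 55.2% had a log2 fold change below 0. The median over all tested genes was -0.03, and the median of the 9 tested members was -0.40, with all 9 below 0. The members of each CESA class vary together (below), so they are not separate observations of a direction. Depth on genes was 16238591 to 16593707 fragments in OX, Al and 16792615 to 16807682 fragments in WT, Al. WT, Al replicate 1 had 52.8 FPKM of green-tissue markers, the lowest sum of the 12 libraries, and the highest CESA1 and CESA3 level of the WT, Al group. Without the 3 libraries rich in green-tissue markers, this was the only WT, Al library left, and the log2 fold changes were -0.43 for CESA1, -0.56 for CESA3 and -0.54 for CESA6, none past the test, with the spread taken from the other groups.

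The secondary-wall CESA genes overlapped between OX and WT under Al. CESA4, known from the irx5 mutant, had 5.34, 4.16 and 4.83 FPKM in OX, Al and 5.34, 4.97 and 7.45 FPKM in WT, Al. CESA7 (irx3) had 4.92, 3.13 and 6.15 FPKM in OX, Al and 5.84, 4.02 and 8.52 FPKM in WT, Al. CESA8 (irx1) had 3.02, 1.60 and 2.87 FPKM in OX, Al and 2.88, 2.36 and 5.37 FPKM in WT, Al. For all 3 genes OX replicate 2 was the lowest and WT replicate 3 the highest of these 6 libraries. The log2 fold changes were -0.27 ± 0.23 for CESA4, -0.33 ± 0.32 for CESA7 and -0.40 ± 0.34 for CESA8 (SE), and the 95% intervals reached from -1.14 to 0.36 over the 3 genes. WT replicate 3 carried much of these differences, which without it were -0.11 for CESA4, -0.077 for CESA7 and -0.09 for CESA8. Without OX replicate 2 they were -0.085 for CESA7 and -0.16 for CESA8, whereas without WT replicate 2 they were -0.58 and -0.61 for these genes, and CESA7 was at -0.52 without OX replicate 3. Without the 3 libraries rich in green-tissue markers CESA4 was at -0.15 and CESA8 at -0.21, while CESA7, at -0.32, hardly moved. Markers of differentiating xylem followed the same libraries, with summed levels of 31.3, 13.2 and 33.3 FPKM in OX, Al and 30.7, 23.0 and 52.7 FPKM in WT, Al. In bulk roots, fewer xylem cells and less RNA per xylem cell cannot be told apart.

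Among the CSLB genes under Al, CSLB03 had 0.783, 0.588 and 0.208 FPKM in OX, Al and 0.478, 2.07 and 3.0 FPKM in WT, Al. WT replicate 1 lay within the OX range, and the high values belonged to WT replicates 2 and 3, the libraries rich in green-tissue markers. The log2 fold change was -1.05 ± 0.72 (SE, 95% interval -2.62 to 0.52, adjusted p = 0.603 by limma), and without the 3 libraries rich in those markers, with 1 WT, Al library left, it was 0.03. It was -1.63 with voom on fragment counts, -1.59 without WT replicate 1 and -0.67 without WT replicate 3. CSLB04 had 0.809, 0.535 and 0.478 FPKM in OX, Al and 0.212, 1.22 and 1.55 FPKM in WT, Al, with WT replicate 1 below all OX libraries. Its log2 fold change of -0.31 ± 0.53 (SE) became 0.63 without those libraries, and leaving out WT replicates 1, 2 or 3 in turn gave -0.78, -0.14 and -0.011. CSLB05 had 0.0920, 0.141 and 0.30 FPKM in OX, Al and 0.432, 0.159 and 1.43 FPKM in WT, Al, a difference of -0.66 ± 0.53 on the log2 scale (SE, adjusted p = 0.665 by limma). Its high value came from WT replicate 3, and WT replicate 2 lay within the OX range. The CSLB05 difference was -1.17 with a pseudocount of 0.1 and -1.49 with voom on fragment counts, and it was -0.22 without WT replicate 3 and -1.0 without WT replicate 2. The part of green tissue in these differences was not tested. The study reported CSLB03 and CSLB05 as decreased in overexpressing roots under Al. It called genes with DEGseq, a test unlike the limma fit used here. It picked them from these same libraries, so their direction here is not independent evidence. For CSLB05 the study also gave qRT-PCR of freshly harvested roots with and without Al, which it described as similar to its RNA-seq result. Its text words the qRT-PCR result as a decrease by Al, while its figure legend marks differences between WT and OX.

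CSLB02 was read by 0 to 26 fragments per library. It had 0.147, 0.0501 and 0.221 FPKM in OX, Al and 0, 0.0726 and 0.629 FPKM in WT, Al. In the control libraries it had 0.380, 0.0754 and 0 FPKM in OX and 0.263, 0 and 0 FPKM in WT. Where it was at 0, up to 3 fragments are allowed by the count. Since it reached 0.5 FPKM in 1 library only, CSLB02 was not tested for a difference. The other CSLB genes rest on few fragments as well, with 9 to 300 (CSLB03), 2 to 79 (CSLB04) and 4 to 71 (CSLB05) fragments per library. Each of the 6 CESA members had at least 87 fragments in every library.

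**Figure D2:**
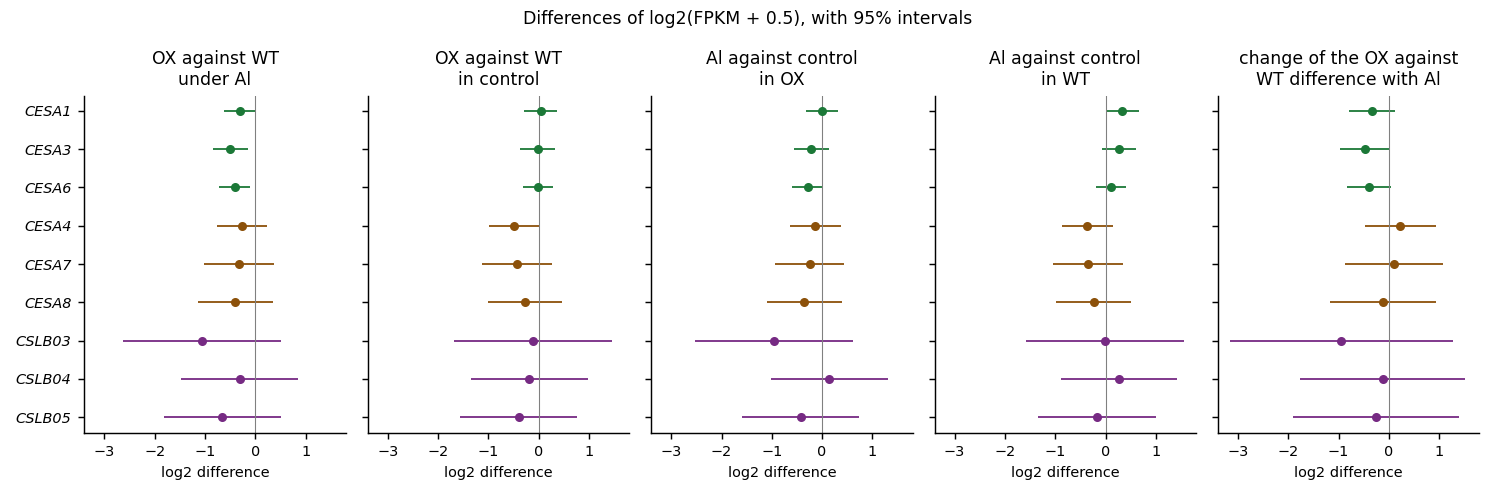
Differences of log2(FPKM + 0.5) (x axes) for the 9 tested genes (rows) in the 5 comparisons (panels), each as the first-named group minus the second, with 95% intervals from limma. Primary-wall CESA genes are green, secondary-wall CESA genes brown and CSLB genes purple. Under Al the intervals of CESA3 and CESA6 lie below 0 before adjustment, and the CSLB intervals are the widest.

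The control libraries of OX and WT were compared to see whether the genotypes differed without Al. No member passed the test and no member's groups were apart (0.0433% of genes passed, and in 3.91% all OX libraries were under all WT libraries). CESA1 had 129, 97.2 and 92.0 FPKM in OX, control and 117, 92.3 and 99.3 FPKM in WT, control. CESA3 had 137, 115 and 94.9 FPKM in OX, control and 145, 105 and 102 FPKM in WT, control. CESA6 had 86.4, 76.6 and 66.2 FPKM in OX, control and 91.0, 69.9 and 71.1 FPKM in WT, control. In both genotypes replicate 1 was the highest for all 3 genes. The log2 fold changes were 0.04 for CESA1, -0.02 for CESA3 and -0.01 for CESA6, and the 95% intervals stayed within -0.37 and 0.36.

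CESA4 had 6.92, 4.72 and 4.43 FPKM in OX, control and 6.65, 6.32 and 10.5 FPKM in WT, control, and the groups overlapped through OX replicate 1. The log2 fold change was -0.50 ± 0.23 (SE, 95% interval -0.99 to 0.00, unadjusted p = 0.0510, adjusted p = 1.0 by limma). CESA7 had 7.13, 5.04 and 4.70 FPKM in OX, control and 7.04, 5.66 and 11.1 FPKM in WT, control. CESA8 had 4.64, 2.70 and 2.69 FPKM in OX, control and 3.36, 3.11 and 6.11 FPKM in WT, control. WT replicate 3 was the highest of the 12 libraries for all 3 genes, and its xylem markers summed to 49.4 FPKM, against 13.2 to 38.4 FPKM in all others but WT, Al replicate 3 (52.7 FPKM). The part of xylem content in these differences was not tested. Without both libraries numbered 1, OX was below WT for 4 tested members, but so were 17.2% of all genes with 2 libraries on each side.

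The CSLB genes varied more within WT, control than between genotypes. CSLB03 had 1.12, 2.29 and 1.08 FPKM in OX, control and 6.75, 1.14 and 0.252 FPKM in WT, control. CSLB04 had 0.760, 0.709 and 0.143 FPKM in OX, control and 1.84, 0.624 and 0.0474 FPKM in WT, control. WT, control replicate 1, the control library rich in green-tissue markers, had the highest and replicate 3 the lowest level of both genes within the group. CSLB05 had 1.38, 0.0945 and 0.161 FPKM in OX, control and 1.60, 0.223 and 0.619 FPKM in WT, control, so that replicate 1 was the highest in both genotypes. The log2 fold changes were -0.11 ± 0.72 for CSLB03, -0.18 ± 0.53 for CSLB04 and -0.40 ± 0.53 for CSLB05 (SE).

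The effect of Al was then examined within each genotype. In OX roots, 0.862% of genes passed the test (59 higher and 120 lower under Al), and no member was among them. CESA6 was lower in every OX, Al library than in every OX, control library, with a mean of 62.4 ± 3.22 FPKM under Al and 76.4 ± 10.09 FPKM in control (SD, n = 3 each), and CSLB03 likewise with 0.526 ± 0.292 FPKM under Al and 1.5 ± 0.689 FPKM in control (SD, n = 3 each). Such a separation was seen for 11.4% of all tested genes. The log2 fold changes were -0.28 ± 0.14 for CESA6 (SE, adjusted p = 0.411 by limma) and -0.95 ± 0.72 for CSLB03 (SE, adjusted p = 0.625 by limma). CESA3 averaged 98.8 ± 2.89 FPKM under Al and 116 ± 21.1 FPKM in control (SD, n = 3 each), and CESA1 averaged 105 ± 4.40 FPKM under Al and 106 ± 20.3 FPKM in control, with overlapping groups. The primary-wall genes spread more among the control than among the Al libraries of OX, and OX, control replicate 1 was the high one for each.

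In WT roots, 0.332% of genes passed (34 higher and 35 lower under Al), again without a member. CESA1 averaged 130 ± 14.4 FPKM under Al and 103 ± 12.6 FPKM in control (SD, n = 3 each). The log2 fold change was 0.34 ± 0.15 (SE, 95% interval 0.02 to 0.66, unadjusted p = 0.0411, adjusted p = 0.374 by limma), with the groups overlapping through WT, control replicate 1. CESA3 averaged 140 ± 7.86 FPKM under Al and 117 ± 24.2 FPKM in control, and CESA6 averaged 83.4 ± 10.4 FPKM under Al and 77.3 ± 11.8 FPKM in control (SD, n = 3 each). Their log2 fold changes were 0.27 ± 0.16 and 0.11 ± 0.14 (SE). Without the 3 libraries rich in green-tissue markers, which leaves WT, Al with 1 library, the values were 0.56 for CESA1 (adjusted p = 0.423), 0.50 for CESA3 (adjusted p = 0.466) and 0.36 for CESA6 (adjusted p = 0.518) by limma. Left out together, the libraries numbered 1 of both control groups moved CESA1 to 0.43 (adjusted p = 0.104) and CESA3 to 0.43 (adjusted p = 0.0950) by limma. CESA6 was then at 0.23 (adjusted p = 0.351 by limma). The secondary-wall genes had log2 fold changes of -0.36 ± 0.23 (CESA4), -0.35 ± 0.32 (CESA7) and -0.23 ± 0.34 (CESA8), and the CSLB genes between -0.17 and 0.27, and no member's groups were apart (8.17% of genes were lower in every Al than in every control library of WT, and 8.25% were higher).

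Whether the genotypes responded differently was tested as the change of the OX against WT difference with Al. It was -0.48 ± 0.22 for CESA3 (SE, 95% interval -0.97 to 0.01, unadjusted p = 0.0546), -0.40 ± 0.20 for CESA6 (SE, unadjusted p = 0.0701) and -0.34 ± 0.21 for CESA1 (SE, unadjusted p = 0.131), on the log2 scale. All 3 had an adjusted p of 0.940 by limma. Without the 3 libraries rich in green-tissue markers, with 1 WT, Al library left, the change was -0.71 for CESA3, -0.65 for CESA6 and -0.56 for CESA1. Of all tested genes, 0.0% passed, with 1035 at an unadjusted p under 0.05 and with 0 passing by voom on fragment counts. A different response of the primary-wall genes in the genotypes is thus not shown. For the secondary-wall genes the change was between -0.12 and 0.23 with standard errors of 0.32 to 0.48, and for the CSLB genes between -0.94 and -0.12 with standard errors of 0.75 to 1.01.

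The proportions among the 3 primary-wall genes were also compared, which does not depend on the total of a library. CESA6 made up 22.6% to 24.1% of the summed FPKM of CESA1, CESA3 and CESA6 in the 6 Al libraries and 24.5% to 26.5% in the 6 control libraries, so that no Al library of either genotype reached a control library. CESA1 made up 38.9% to 40.0% in OX, Al, against 36.0% to 37.4% in WT, Al. In the controls it made up 33.7% to 36.7% in OX and 33.1% to 36.5% in WT. The CESA3 share overlapped, at 36.4% to 41.4% in the Al and 37.5% to 41.2% in the control libraries. These shares were looked at after the values had been seen and were not tested. How often shares within other sets of 3 genes separate the Al from the control libraries was not computed.

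**Figure D3:**
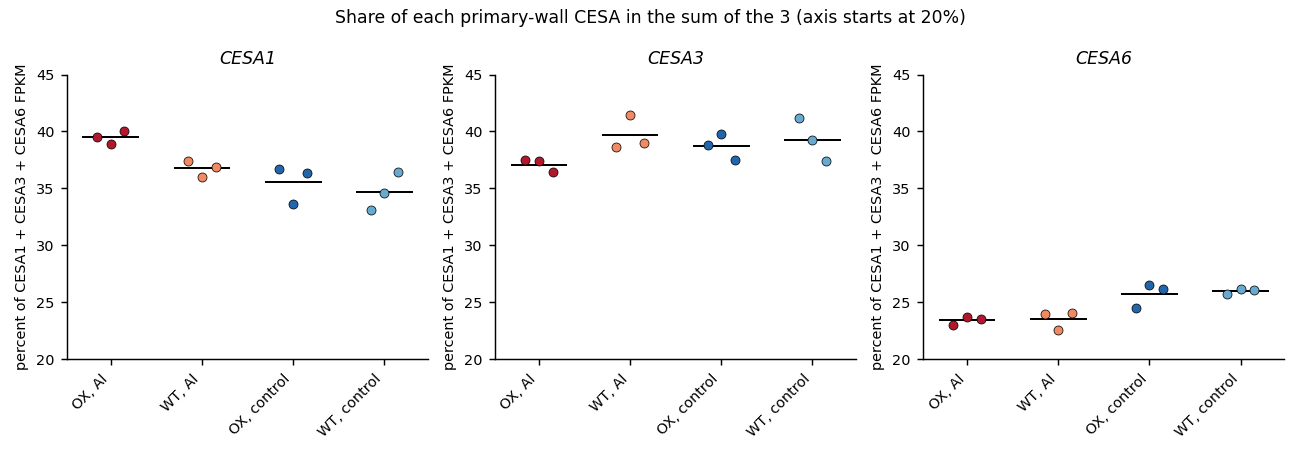
Share of CESA1, CESA3 and CESA6 (panels) in their summed FPKM (y axes, in percent, from 20%) in each library of the 4 groups (x axes). Points are libraries and bars are group means. CESA6 is at 22.6% to 24.1% in the Al libraries and at 24.5% to 26.5% in the control libraries.

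The 3 genes of each CESA class varied together over the 12 libraries. On the log2(FPKM + 0.5) scale, Pearson's r was 0.955 for CESA7 and CESA8, 0.918 for CESA4 and CESA8 and 0.910 for CESA4 and CESA7. It was 0.928 for CESA3 and CESA6, 0.843 for CESA1 and CESA3 and 0.742 for CESA1 and CESA6. With the group means taken out, these 6 values were 0.871 to 0.958, and without the 2 libraries farthest from the median of the first gene they were 0.573 (CESA1 and CESA6) to 0.887. Between primary- and secondary-wall genes, r was 0.189 to 0.465. CSLB03 and CSLB04, the neighbours on chromosome 2, had r = 0.811. CSLB05 was nearer to CESA6 (r = 0.773) and CESA7 (r = 0.701) than to CSLB03 (r = 0.445), and its r with CSLB02 was 0.716. All these values describe the same 12 libraries, whose points share library, depth and group, and levels of the CSLB genes rest on few fragments.

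The classes were set beside lists of other genes. The mean level of CESA1, CESA3 and CESA6 followed that of 6 partners of the complex with r = 0.951, and that of CESA4, CESA7 and CESA8 followed 20 secondary-wall genes with r = 0.938 and 6 xylem markers, all of them also in that list, with r = 0.883 (n = 12 libraries each). The mean of the 4 CSLB genes followed the green-tissue markers with r = 0.742, or 0.809 without WT, Al replicates 2 and 3. The latter value still included WT, control replicate 1, which was rich in these markers and had the highest CSLB mean. A value without all 3 libraries rich in these markers was not computed. With those markers r was 0.831 for CSLB04 and 0.714 for CSLB03, but 0.348 for CSLB05, which followed the xylem markers with r = 0.791. The primary-wall class had r = 0.368 and the secondary-wall class r = -0.02 with the green-tissue markers.

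**Figure D4:**
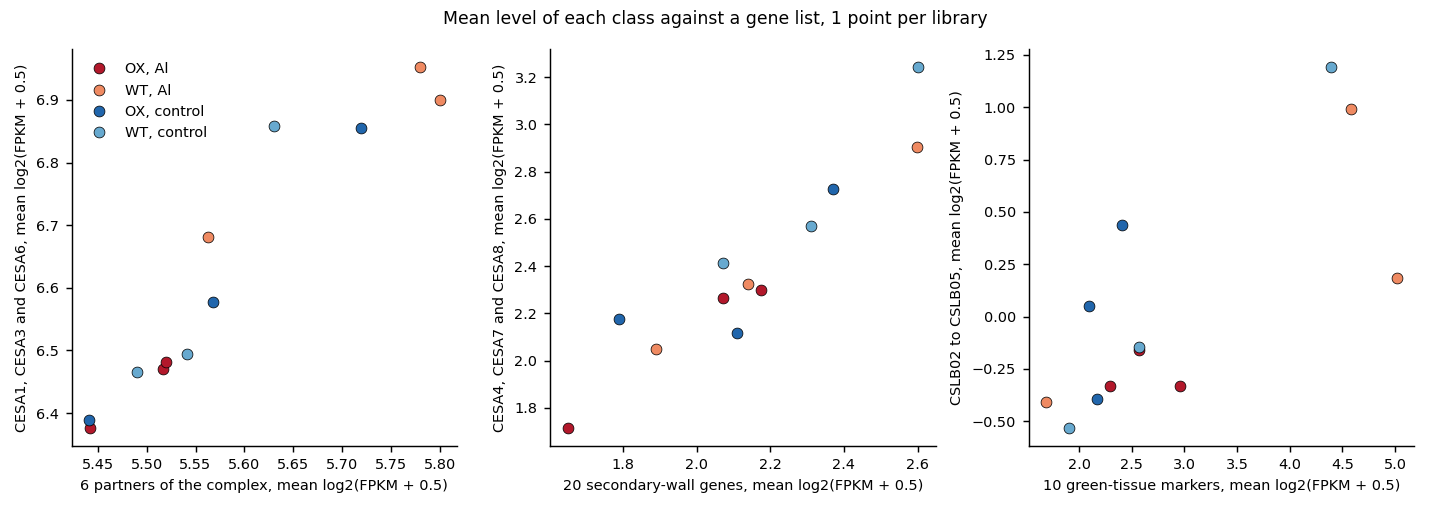
Mean log2(FPKM + 0.5) of each class (y axes) against that of a gene list (x axes), with 1 point per library coloured by group. Primary-wall CESA genes are set against partners of the complex, secondary-wall CESA genes against secondary-wall genes and CSLB genes against green-tissue markers, and r is 0.951, 0.938 and 0.742.

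By correlation with the class mean, the 5 genes nearest to CESA1, CESA3 and CESA6 were SCD1 (r = 0.979), which acts in membrane traffic at cytokinesis, AT5G23430 (0.954), a protein with WD40 repeats, AT1G60070 (0.950), a subunit of the AP-1 adaptor of clathrin-coated vesicles, AT2G41810 (0.949), of the DUF642 family, and AT1G52360 (0.933), a subunit of the coatomer coat. Those nearest to CESA4, CESA7 and CESA8 were PGSIP1 (AT3G18660, r = 0.965), which adds glucuronic acid to xylan, LAC4 (0.931), a laccase of lignin formation, PARVUS (0.921), which acts in xylan synthesis, XCP1 (0.909), a protease of xylem cells, and APS2 (0.903), an ATP sulfurylase. Those nearest to the CSLB genes were AT4G20860 (0.923), CHX20 (0.920), a cation/proton exchanger known from guard cells, AT5G13500 (0.909), FBA2 (0.900), a plastid aldolase, and AT2G29340 (0.900). These genes were selected as the highest of 20773 tested genes, so the size of r is a description of the selection.

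Among the other CESA and CSLB genes, CESA2, CESA5 and CSLB01 could be tested, and none passed in any comparison. CESA2 averaged 18.7 FPKM in OX, Al, 29.5 FPKM in WT, Al, 21.9 FPKM in OX, control and 24.9 FPKM in WT, control, with a log2 fold change of -0.59 between OX and WT under Al (adjusted p = 0.455 by limma). CESA5, a relative of CESA6 known from seed coat mucilage, averaged 18.0 FPKM in WT, Al and 13.3 FPKM in WT, control. Its log2 fold change was 0.43 (adjusted p = 0.152 by limma). All its WT, Al libraries were above all its WT, control libraries, as for 8.25% of all tested genes. CSLB01, which lies between CSLB04 and CSLB02 on chromosome 2, averaged 3.25 FPKM in OX, Al, 2.67 FPKM in WT, Al, 2.65 FPKM in OX, control and 2.16 FPKM in WT, control. It was thus the CSLB gene with the highest group mean in all groups but WT, control, where CSLB03 averaged 2.71 FPKM with 6.75 FPKM in replicate 1. CESA9 averaged at most 0.185 FPKM in any group.

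None of the 6 partners of the complex passed in any comparison. Between OX and WT under Al, 5 of 6 were below 0, as were 55.2% of all tested genes, and the median log2 fold change was -0.34. All OX libraries were under all WT libraries for 4 of the 6 and above them for 1. Of all tested genes, 10.8% were lower and 8.77% were higher in this way. KOR1, a membrane-bound glucanase needed for cellulose synthesis, averaged 198 FPKM in OX, Al and 242 FPKM in WT, Al (log2 fold change -0.29, adjusted p = 0.449 by limma). COB, a GPI-anchored protein that sets the direction of root cell expansion, averaged 51.1 FPKM in OX, Al and 67.7 FPKM in WT, Al (-0.39, adjusted p = 0.390). CTL1, a chitinase-like protein of cellulose assembly, averaged 178 FPKM in OX, Al, and its groups overlapped (-0.17 against WT, Al, adjusted p = 0.651).

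KOB1, a membrane protein needed for cellulose synthesis in elongating cells, went the other way. It averaged 40.3 FPKM in OX, Al, 30.3 FPKM in WT, Al, 30.5 FPKM in OX, control and 22.5 FPKM in WT, control. Its libraries were apart in all 4 comparisons, with OX above WT and Al above control, which 8.77% of genes met between OX and WT under Al, 3.93% in control, 9.11% between Al and control in OX and 8.25% in WT. Its log2 fold changes were 0.40 and 0.43 between OX and WT under Al and in control, and 0.39 and 0.43 between Al and control in OX and in WT, with adjusted p of 0.0716 (Al against control in OX) to 0.293 (OX against WT in control) by limma.

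Of the 20 secondary-wall genes, 17 could be tested and none passed in any comparison. Between OX and WT, 15 of 17 were below 0 under Al (median log2 fold change -0.26) and 16 of 17 in control (median -0.26), against medians of -0.03 and -0.01 over all tested genes. Of all tested genes, 55.2% were below 0 under Al and 51.5% in control. All OX libraries were under all WT libraries for 2 of the 17 in each case (10.8% of all tested genes under Al and 3.91% in control). The mean of the 20 genes followed that of CESA4, CESA7 and CESA8 (r = 0.938), so they are not separate observations of a direction. On the log2(FPKM + 0.5) scale this mean was highest in WT replicate 3, at 2.599 with Al and 2.602 without. The remaining WT libraries lay inside the OX range, which was 1.649 to 2.175 with Al and 1.789 to 2.369 without. FRA8, a glycosyltransferase of xylan synthesis and the most abundant of the list, averaged 80.6 FPKM in OX, Al and 74.3 FPKM in WT, Al. IRX14, of the xylan backbone, averaged 19.8 FPKM in OX, Al, 25.1 FPKM in WT, Al, 26.3 FPKM in OX, control and 26.5 FPKM in WT, control, with a log2 fold change of -0.41 between Al and control in OX (adjusted p = 0.0958 by limma). CTL2, a chitinase-like protein of secondary walls, averaged 17.0 FPKM in OX, Al and 13.3 FPKM in WT, Al. XCP2, a protease of xylem cells, averaged 15.9 FPKM in OX, Al and 20.7 FPKM in WT, Al, with overlapping groups.

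Of 17 other cellulose synthase-like genes, 14 could be tested and none passed in any comparison. Between Al and control in WT, 12 of 14 were above 0 with a median log2 fold change of 0.23, and 5 were higher in every Al than in every control library (8.25% of all tested genes were higher in this way, and 47.6% were below 0). In OX, 8 of 14 were above 0 and the median was 0.10. CSLD2 and CSLD3, both known from root hair growth, averaged 40.5 and 34.1 FPKM in WT, Al, against 26.6 and 25.9 FPKM in WT, control (log2 fold changes 0.62 and 0.39, adjusted p = 0.103 and 0.0876 by limma). Beside them stand the 3 root markers known from root hair cells, none of which passed. COBL9 averaged 2.87 FPKM in WT, Al and 1.36 FPKM in WT, control (log2 fold change 0.80, adjusted p = 0.344 by limma), and RHD6 averaged 8.81 FPKM in WT, Al and 5.36 FPKM in WT, control (0.68, adjusted p = 0.417), whereas EXPA7 averaged 12.4 FPKM in WT, Al and 13.2 FPKM in WT, control (0.085, adjusted p = 0.958). These markers were named after their values had been seen, and the part of root hair cells in the CSLD2 and CSLD3 differences was not tested. CSLE1, the most abundant of the list, averaged 69.0 FPKM in WT, Al and 68.3 FPKM in WT, control, and CSLA02, a glucomannan synthase, averaged 20.9 FPKM in WT, Al and 21.8 FPKM in WT, control.

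The bases upstream of the genes were searched because members varied together within the CESA classes, as did CSLB03 and CSLB04, and because *GmNTL4* is a NAC factor. In the 250 bases before the annotated gene start on TAIR10.1, CATGT, the core of sites bound by several NAC proteins, was present on either strand in all 4 CSLB genes, in CESA7 and CESA8, and in none of CESA1, CESA3, CESA6 and CESA4. Of the windows of the same length before 23950 genes, 34.7% held it. An element of 7 bases in 8 variants, named after the xylem marker MYB46, was searched as well. Among the members it was present only before CESA1 and CESA4, and 29.6% of the windows held it. The windows of CSLB03 (chr2:13808769-13809018, plus strand) and CSLB04 (chr2:13814293-13814542, plus strand) are shown with the matches in capitals, since these neighbours varied together.
CSLB03: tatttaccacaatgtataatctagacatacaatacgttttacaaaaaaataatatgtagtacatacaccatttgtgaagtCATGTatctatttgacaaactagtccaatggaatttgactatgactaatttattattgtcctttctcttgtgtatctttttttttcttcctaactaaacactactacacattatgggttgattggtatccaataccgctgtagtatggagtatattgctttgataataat
CSLB04: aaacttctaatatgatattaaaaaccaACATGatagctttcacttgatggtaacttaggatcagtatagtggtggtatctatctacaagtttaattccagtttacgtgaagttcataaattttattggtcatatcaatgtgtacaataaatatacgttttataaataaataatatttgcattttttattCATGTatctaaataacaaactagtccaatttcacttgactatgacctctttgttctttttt
In both, CATGT is followed within a few bases by an identical run of 15 bases, the longest that the windows share, and 64.9% of their aligned bases are identical. In CESA7 and CESA8 the match is the palindrome ACATGT, which was counted on both strands. The windows of CESA4 and CESA8 overlap another annotated gene. A match describes these letters only, and binding was not measured.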

How the data were processed

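RNA-seq of roots was analysed in 4 groups of 3 libraries. The deposited values are FPKM for each gene in each library. The authors, by their methods, aligned reads to TAIR10 by HISAT2, obtained counts per gene from HTSeq (0.6.0 per the labels) and converted these to FPKM. FPKM are not counts, and log2 fold changes on log2(FPKM + 0.5) understate changes of low genes. Fragments were read back from the FPKM for 100% of 25872 genes, within 0.01 fragment of a whole number, and were used for depth and for voom.

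Linear models with a mean per group were fitted to all 12 libraries with limma 3.58.1 (R 4.3.3), with a trend of the variance. Only genes that reached 0.5 FPKM in 3 or more libraries were tested (20773), with Benjamini-Hochberg adjustment over all of them. A gene passed with an adjusted p no higher than 0.05 together with a difference of 1 or more on the log2 scale. Test scripts were checked on simulated data. Sequences and positions came from TAIR10.1, in which 25579 identifiers were found, and tables and figures were made in Python 3.11.15 (pandas 2.3.3, numpy 2.4.6, matplotlib 3.10.9). CSLB coding sequences were compared by global alignment.

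The text names all 10 members, the 5 tested genes that correlate best with each class mean, and from each list its genes that passed and up to 4 with the highest mean FPKM. The lists were other CESA and CSLB genes, partners of the complex, secondary-wall genes and other CSL genes, with markers of root, differentiating xylem, green tissue and shoot epidermis. The shoot epidermis markers, ATML1, PDF1 and PDF2, summed to 20.8 to 63.1 FPKM over the libraries. Members and lists were chosen with earlier results of these data known. Alternatives were pseudocounts of 0.1 and 1, no filter, median-ratio scaling, quantile normalization, a fit to the compared groups alone, a block for the replicate number, no variance trend, voom, the adjusted p alone and leaving out each library.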

Additional observations from a re-analysis of the deposited data

How the results depend on the processing

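No member passed the test under any alternative, and the lowest adjusted p of a member was 0.0950 (CESA3, Al against control in WT, without both libraries of control number 1, by limma). Of 1059 alternative values of the 45 log2 fold changes of members, 66 changed sign, and 24 of the 45, among them those of CESA1, CESA3 and CESA6 between OX and WT under Al, did so in none. The causes of these changes were not tested. Leaving out the 3 libraries rich in green-tissue markers or both control libraries numbered 1 was chosen after seeing the data. Without the 3 green-rich libraries, OX against WT under Al became 0.027 for CSLB03 and 0.63 for CSLB04, OX against WT in control 0.14 for CESA3, 0.11 for CESA6, 0.79 for CSLB03 and 0.34 for CSLB04, Al against control in WT -0.14 for CSLB04, and the change of the genotype difference 0.18 for CESA8 and 0.29 for CSLB04. CSLB05 then fell under the filter. Without both control libraries numbered 1, OX against WT in control became -0.018 for CESA1, 0.013 for CESA3, 0.015 for CESA6, 0.92 for CSLB03 and 0.17 for CSLB04, Al against control in OX 0.05 for CESA4, Al against control in WT 0.89 for CSLB03, and the change of the genotype difference 0.22 for CESA8. With a pseudocount of 0.1, CSLB03 became 0.067 for OX against WT in control and 0.13 for Al against control in WT. With voom it became 0.14 and 0.18 in these comparisons, and CSLB04 became 0.091 for OX against WT in control. Quantile normalization gave -0.062 for CESA1, Al against control in OX. No sign changed with the other scaling, filter, pseudocount, trend or block settings.

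Leaving out each library in turn, OX against WT in control ranged from -0.11 to 0.13 for CESA1, -0.15 to 0.14 for CESA3, -0.11 to 0.11 for CESA6, -0.50 to 0.002 for CESA8, -0.84 to 0.79 for CSLB03, -0.71 to 0.34 for CSLB04 and -0.93 to 0.008 for CSLB05. Al against control in OX ranged from -0.094 to 0.15 for CESA1, -0.24 to 0.05 for CESA4, -0.17 to 0.32 for CSLB04 and -0.73 to 0.10 for CSLB05. Al against control in WT ranged from -0.54 to 0.042 for CESA8, -0.74 to 0.89 for CSLB03, -0.25 to 0.79 for CSLB04 and -0.61 to 0.24 for CSLB05. The change of the genotype difference ranged from -0.15 to 0.36 for CESA7, -0.40 to 0.18 for CESA8, -0.65 to 0.40 for CSLB04 and -0.66 to 0.27 for CSLB05.

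Counts over all genes moved more. OX against WT under Al gave 8 genes, 13 without a variance trend, 5 with voom, 1 without the green-rich libraries, 14 without both controls numbered 1, and 1 (without OX, Al replicate 2 or 3) to 10 on leaving out a library. OX against WT in control gave 9, and 5 with a pseudocount of 1, without a filter or without a trend, 2 with voom, 0 in the fit to the compared groups, 1 without the green-rich libraries, 2 without both controls numbered 1, and 1 (without OX, control replicate 3) to 10 on leaving out a library. Al against control in OX gave 179, and 40 in the fit to the compared groups, 91 without both controls numbered 1, and 3 (without OX, Al replicate 2) to 486 (without OX, Al replicate 1) on leaving out a library. Al against control in WT gave 69, and 38 without a filter, 0 without the green-rich libraries, 143 without both controls numbered 1, and 0 (without WT, Al replicate 1) to 152 (without OX, Al replicate 1) on leaving out a library. The change of the genotype difference gave 0, and 1 without a filter or without a trend. Libraries with the same replicate number did not deviate together in a common way (correlations of residuals -0.247 to 0.286), and a block on the number gave 4 genes for OX against WT under Al, 2 in control, 213 for Al in OX, 85 for Al in WT and 0 for the change. Depth limits the CSLB genes most, with as few as 2 fragments in a library for CSLB04 and 0 for CSLB02.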
